A study of Mus musculus with 15 samples.

Results

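The 8 genes Trib3, Chac1, Nupr1, Cebpb, Cebpg, Sesn2, Eif4ebp1 and Ddit4 were followed in bulk RNA-seq of HY19636 cells and tumors. They were chosen by name, as stress regulators that depend on the transcription factor ATF4 or that act as brakes on growth and translation, out of 55291 genes in the deposited tables. The choice was made with earlier results of these data known. HY19636 is a primary murine line of pancreatic ductal adenocarcinoma (PDAC) that carries mutant p53. Control cells (CNT), grown in DMEM with fetal serum, were compared with cells given 25 µM DON for 24 h and with cells kept without glutamine (Gln) for 24 h. Orthotopic HY19636 tumors were compared between mice given DRP-104 and mice given vehicle, with 3 samples in each of the 5 groups. The tumors grew in female C57BL/6J mice aged 8 to 10 weeks, which received 3 mg/kg DRP-104 or vehicle (detergent, ethanol and saline) daily by intraperitoneal injection in 2 cycles of 5 days on and 2 days off, with collection on day 21. DON is a broad antagonist of enzymes that use Gln, and DRP-104 is a prodrug of it. All groups derive from this 1 line, whose founder mice carried 1 floxed p53 allele with Ptf1a-Cre, and the tumors also hold cells of the host mouse. No source used here says which cultures were separate experiments, so p-values measure the spread between these samples, which may be technical.

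When amino acids run short, the kinase GCN2 phosphorylates the initiation factor eIF2, which lowers general translation and raises translation of ATF4. ATF4 pairs with C/EBP proteins at composite DNA elements and drives genes of amino acid synthesis and transport, and it also drives genes that restrain the response itself, glutathione levels or the growth kinase complex mTORC1. PDAC cells are known for a high use of Gln.

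In the coordinates of the deposited tumor FPKM table, which match the GRCm38 build, Trib3 (ENSMUSG00000032715) lies at chr2:152337422-152344032 and Chac1 (ENSMUSG00000027313) at chr2:119351229-119354381. Nupr1 (ENSMUSG00000030717) lies at chr7:126623249-126630861, Cebpg (ENSMUSG00000056216) at chr7:35046422-35056503 and Cebpb (ENSMUSG00000056501) at chr2:167688915-167690418. Sesn2 (ENSMUSG00000028893) lies at chr4:132492032-132510501, Eif4ebp1 (ENSMUSG00000031490) at chr8:27260327-27275656 and Ddit4 (ENSMUSG00000020108) at chr10:59949675-59951770. Exons of Cebpb overlap those of Tmem189 on the opposite strand, and exons of Cebpg overlap the predicted genes Gm44836 and Gm45095. The use of strand in counting is not given in the sources used here, so reads of Cebpb and Cebpg cannot be told apart from those of these overlapping genes.

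RefSeq promoter windows (GRCm38.p6, 250 bases before to 50 bases after the start) were matched for 7 of the 8 genes. The composite C/EBP-ATF element, searched as TGATGNAA on both strands, was found in the windows of Chac1, Trib3 and Nupr1, and in 3.969% of all 32851 windows. These 3 genes had the largest rises of the 8 after DON. Without Gln this did not hold for Chac1, whose log2 fold change of 1.17 was below those of Cebpg (1.53), Cebpb (1.27) and Sesn2 (1.26). The motifs were chosen with earlier results of these data known, and a link between motif and change was not tested. The stretch around each match is printed 5′ to 3′ on the strand of the gene, with the element in capitals as its reverse complement.
Chac1, chr2:119351019-119351086, plus strand: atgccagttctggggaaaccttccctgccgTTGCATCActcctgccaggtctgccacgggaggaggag
Trib3, chr2:152344028-152344057, minus strand: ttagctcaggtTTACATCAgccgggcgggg
Nupr1, chr7:126625562-126625591, minus strand: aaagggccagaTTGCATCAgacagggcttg
The Chac1 element begins 193 bases before the RefSeq start and the Nupr1 element 110 bases before it, the latter inside an exon of a longer annotated Nupr1 transcript. The Trib3 element begins 14 bases after the RefSeq start. By the gene coordinates given above it is upstream of Trib3, since it lies at chr2:152344039-152344046 and the minus-strand gene reaches only to 152344032. No window of the 7 genes held TGACGTCA, the cAMP response element (1.79% of all windows), or the C/EBP palindrome TTGCGCAA (0.183%), searched in the same way. A match describes the letters in the window and is no evidence of binding.

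The deposited values are read counts divided by 1 size factor per library, called normalized counts here. Culture libraries held 25.2 to 48.2 M (mega) reads and tumor libraries 16.3 to 20.7 M. All 8 epithelial markers checked were detected in every group. Cultured control cells had 5 of 8 macrophage markers and 6 of 8 fibroblast markers at no more than 3 reads in every library, whereas tumors expressed all of them. The summed epithelial markers ran from 329511 to 419856 scaled reads in control cells, from 101189 to 108643 after DON and from 137932 to 151582 without Gln. Their part in the changes below was not tested.

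After DON, all 8 genes changed: 7 rose and Ddit4 fell. The same 7 rose and Ddit4 fell in cells without Gln. Calls were made at an adjusted p under 0.05 (limma with Benjamini-Hochberg adjustment over all genes), and 68.1% of 13556 genes were called after DON, 33.3% higher and 34.7% lower. Without Gln 69.4% of 13390 genes were called, 34.5% higher and 34.9% lower. The groups did not overlap for any of the 8 genes, as for 71.9% of all genes after DON and 73.6% without Gln. Their median log2 fold change was 1.30 with DON and 1.27 in the absence of Gln, beside 0.02 and 0.0059 over all genes tested. Both comparisons share the 3 control libraries, so their values stand side by side and are not independent of each other. In tumors none of the 8 genes was called, and neither was any other of the 15454 genes tested there (0%).

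**Figure D1:**
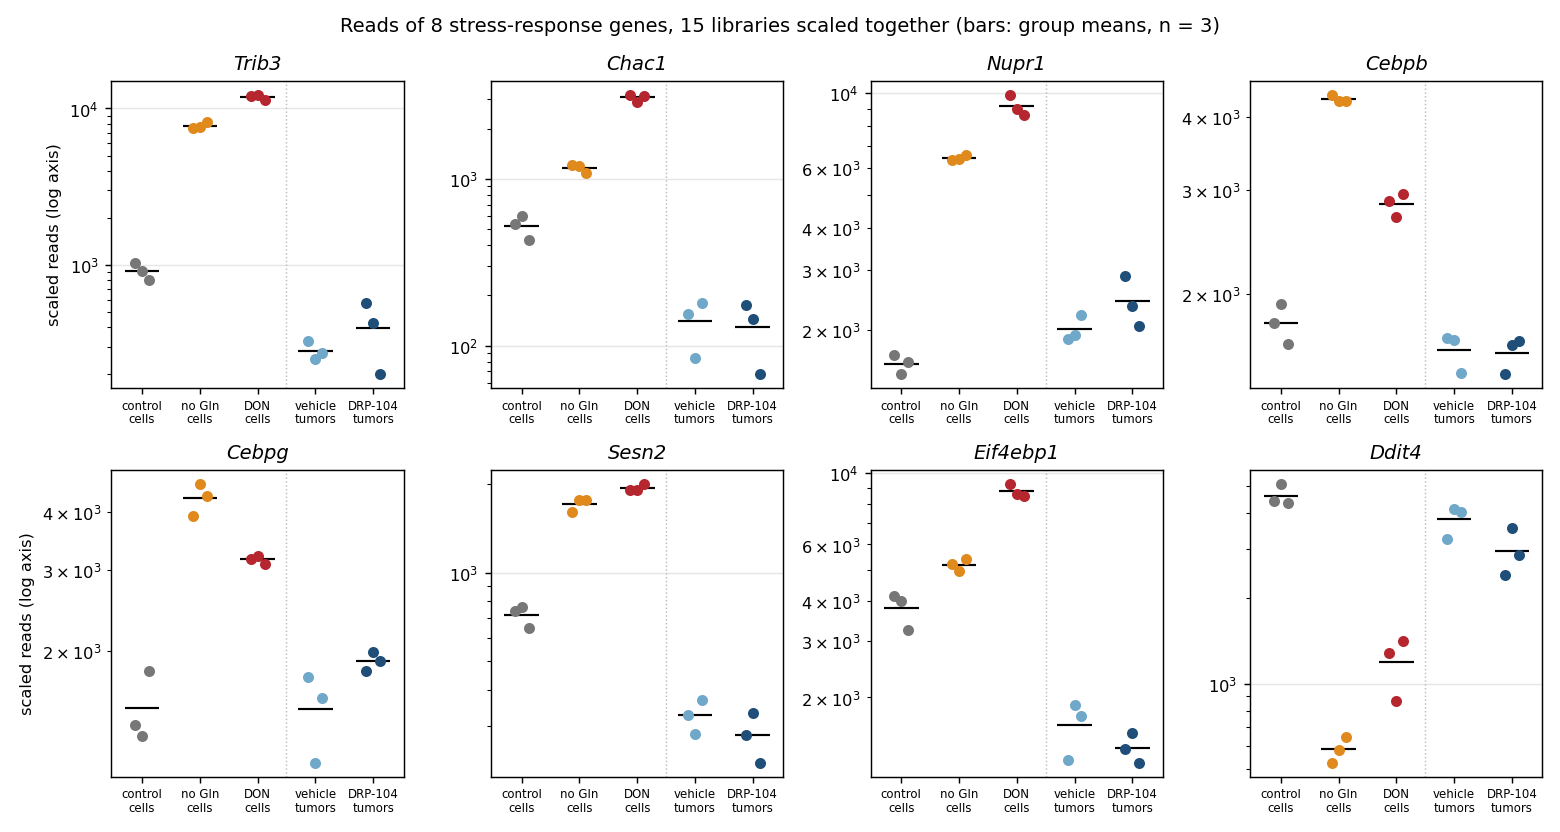
Reads of each gene in all 15 libraries (y axis, log scale, reads scaled together over the libraries), with 1 point per library and a bar at the mean of 3. For 7 genes the cells without Gln and with DON lie above the control cells, Ddit4 lies below, and vehicle and DRP-104 tumors overlap except for Cebpg.

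Trib3, a pseudokinase that binds ATF4 and AKT and restrains both, changed most. It had 14243, 14600 and 13682 normalized counts in the DON cultures against 1265, 1128 and 962 in the controls. The cells without Gln had 8725, 8889 and 9495, against 928 to 1192 for the same control reads as scaled in that table. Every treated culture lay far above every control. The log2 fold change was 3.67 after DON (SE 0.103, adjusted p = 4.79e-12, limma), or 12.7-fold, and 3.09 without Gln (SE 0.0990, adjusted p = 1.34e-10, limma), or 8.54-fold. Among all genes tested Trib3 was 81st from the highest fold change after DON and 108th without Gln.

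Nupr1, a small stress-induced chromatin protein of the pancreas and other tissues, had 11800, 10784 and 10422 normalized counts after DON against 2059, 1821 and 1926 in controls. Without Gln it had 7377, 7428 and 7633, against 1720 to 1940 in controls. The groups did not overlap in either comparison. Nupr1 rose by 2.51 on the log2 scale after DON (SE 0.0896, adjusted p = 4.07e-11, limma), or 5.68-fold, and by 2.02 without Gln (SE 0.0813, adjusted p = 7.09e-10, limma), or 4.07-fold.

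Chac1 encodes a gamma-glutamylcyclotransferase that breaks down glutathione, and is a target of ATF4 and CHOP. It had 3791, 3467 and 3786 normalized counts after DON and 654, 741 and 518 in controls. Without Gln it had 1410, 1386 and 1259, against 499 to 699.5 in controls. Chac1 was thus above controls in each treated culture, and the DON cultures were far above those without Gln. The log2 fold change was 2.54 after DON (SE 0.123, adjusted p = 5.52e-10, limma) and 1.17 without Gln (SE 0.126, adjusted p = 3.30e-06, limma), which are 5.83-fold and 2.25-fold.

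Cebpb and Cebpg encode C/EBP family factors, and C/EBPγ is a partner of ATF4 at composite elements. Cebpb had 3432, 3241 and 3563 normalized counts after DON against 2193, 2374 and 1979 in controls. Without Gln it had 5076, 4949 and 4932, against 1909 to 2242 in controls. The rise was larger in cells without Gln, at 1.27 on the log2 scale (SE 0.0856, adjusted p = 5.03e-08, limma), than after DON, at 0.65 (SE 0.0951, adjusted p = 3.51e-05, limma), and the direct test of that difference is given below.
Cebpg had 3778, 3847 and 3711 normalized counts after DON and 1695, 1614 and 2184 in controls. The cells without Gln had 4566, 5348 and 5018, against 1524 to 2106 in controls. Here too the cells without Gln stood highest, and neither treated group overlapped the controls. Cebpg rose by 1.06 after DON (SE 0.111, adjusted p = 1.27e-06, limma) and by 1.53 without Gln (SE 0.119, adjusted p = 1.77e-07, limma) on the log2 scale.

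Sesn2, Ddit4 and Eif4ebp1 act on the mTORC1 arm. Sesn2 encodes Sestrin 2, a leucine sensor that holds mTORC1 in check through GATOR2. It had 2287, 2279 and 2418 normalized counts after DON against 907, 939 and 779 in controls, and 1876, 2049 and 2049 without Gln against 752 to 887. All treated cultures lay above the controls, by 1.41 on the log2 scale after DON (SE 0.102, adjusted p = 2.74e-08, limma) and by 1.26 without Gln (SE 0.0987, adjusted p = 1.88e-07, limma).
Eif4ebp1 encodes 4E-BP1, the repressor of the cap-binding protein eIF4E that mTORC1 inactivates. After DON it had 11075, 10293 and 10227 normalized counts against 5093, 4917 and 3911 in controls. Without Gln it had 6088, 5758 and 6276 against 3772 to 4800. This was the smallest of the rises without Gln, at 0.46 on the log2 scale (SE 0.0984, adjusted p = 0.00101, limma), whereas after DON it was 1.19 (SE 0.104, adjusted p = 2.00e-07, limma).
Ddit4 encodes REDD1, which restrains mTORC1 through the TSC complex and is known as a target of ATF4, of hypoxia and of glucocorticoids. It went the other way. It had 1535, 1036 and 1696 normalized counts after DON against 5394, 6266 and 5245 in controls, and 612, 678 and 752 without Gln against 5059 to 5918. Ddit4 was lower than every control in every treated culture, by 4.03-fold after DON (log2 fold change -2.01, SE 0.149, adjusted p = 3.73e-08, limma) and by 7.86-fold without Gln (log2 fold change -2.97, SE 0.103, adjusted p = 2.24e-10, limma). Counted from the lowest fold change of all genes tested, Ddit4 was 330th without Gln and 1017th after DON.

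**Figure D2:**
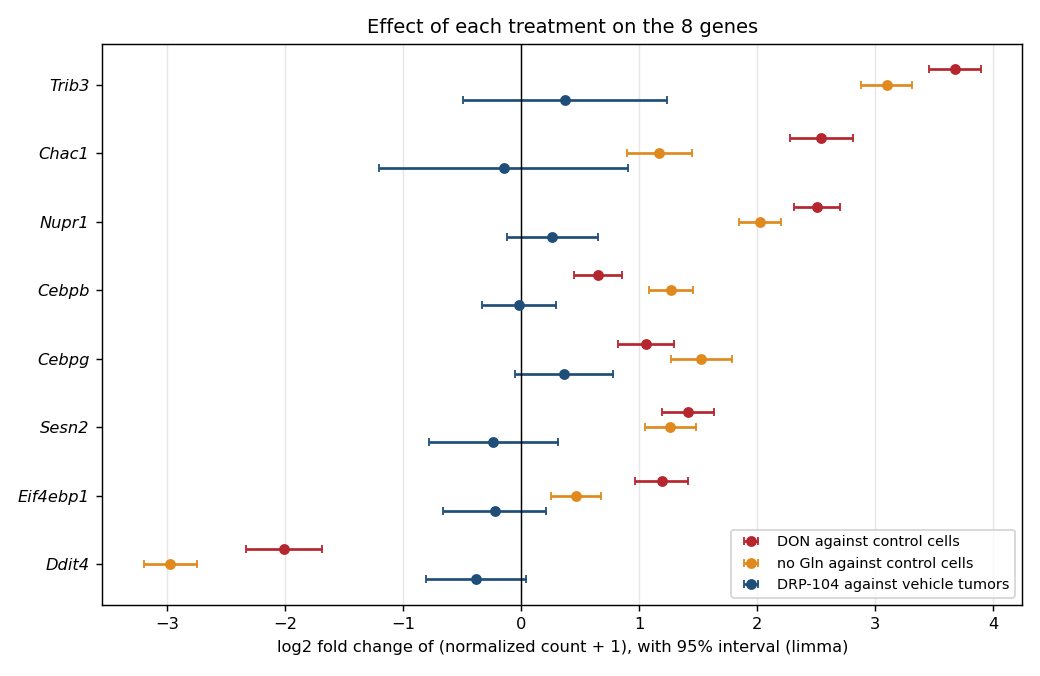
Log2 fold change of each gene (x axis, on normalized count + 1) with its 95% interval from limma, for DON, absence of Gln and DRP-104, each against its own control (n = 3 against 3). The 7 rises and the fall of Ddit4 in cells stay clear of 0, while the interval of every gene in tumors includes 0.

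**Figure D3:**
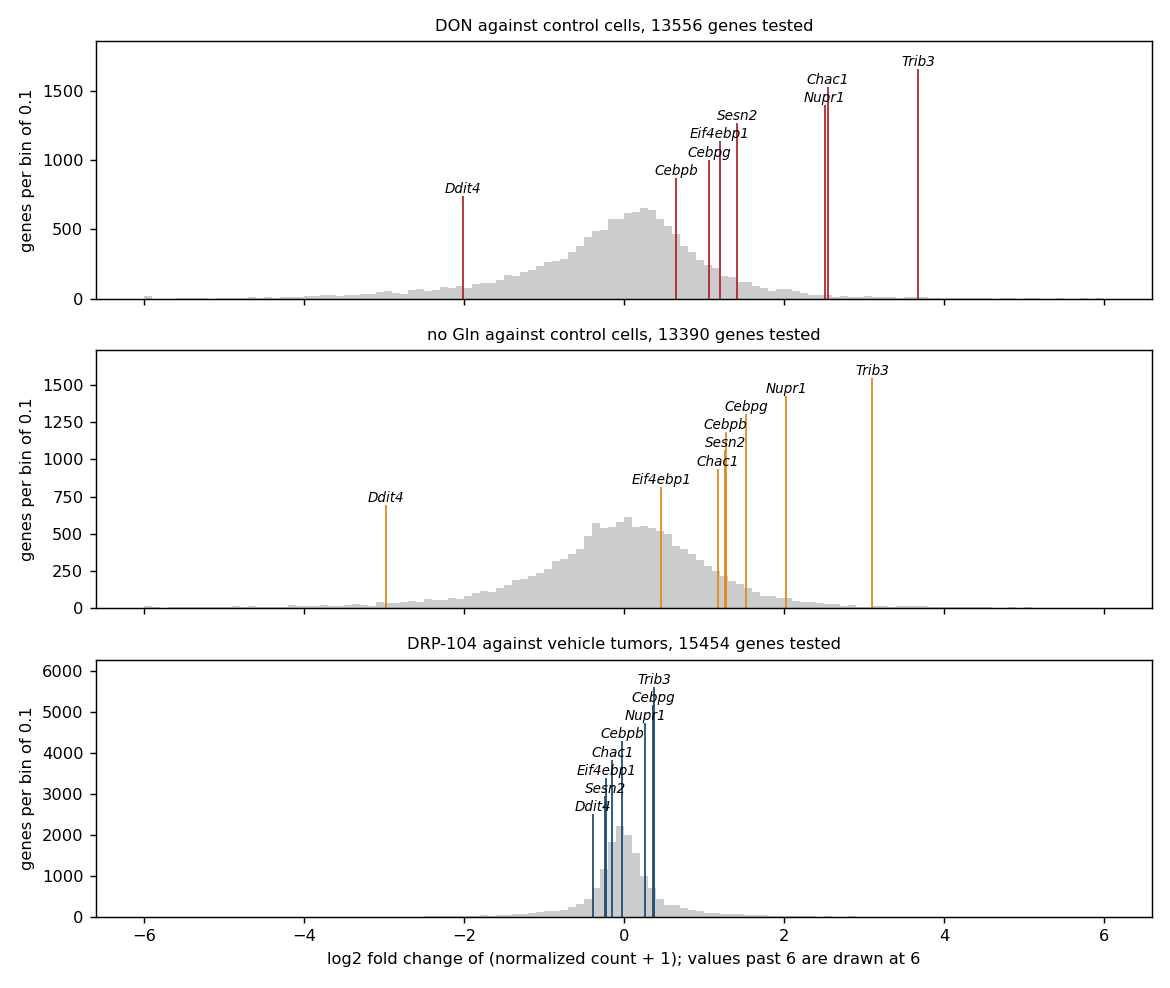
Distribution of log2 fold changes over all genes tested in each comparison (grey, genes per bin of 0.1) with the 8 genes marked. Trib3 lies far out on the right in both culture comparisons and Ddit4 on the left, and in tumors all 8 lie between -0.39 and 0.37, with Ddit4 the lowest and Trib3 the highest of them.

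DON and the absence of Gln were then set directly against each other on the reads of all 9 cultures scaled together, since a call in one comparison and its size in another do not test a difference. Of the 8 genes, 5 were higher after DON than without Gln, 2 were lower and 1 was not called, where 63.3% of 13514 genes were called, 31% higher and 32.3% lower. Chac1 differed most, being 2.65-fold higher after DON (log2 difference 1.40, SE 0.112, adjusted p = 3.89e-08, limma). Eif4ebp1 was 0.76 higher (adjusted p = 2.75e-06, limma), Trib3 0.61 (adjusted p = 2.23e-05, limma) and Nupr1 0.51 (adjusted p = 2.21e-05, limma) on the log2 scale. Ddit4 was 1.00 higher after DON (SE 0.145, adjusted p = 2.29e-05, limma), which means a smaller fall. Both C/EBP genes went the opposite way. For Cebpb the log2 difference of DON minus no Gln was -0.59 (SE 0.0792, adjusted p = 9.96e-06, limma), and for Cebpg it was -0.44 (SE 0.104, adjusted p = 0.00188, limma). Sesn2 was not called, with a log2 difference of 0.19 and a 95% interval of -0.0027 to 0.37 (adjusted p = 0.0788, limma), although its 3 DON values lay above its 3 values without Gln, as the groups did not overlap for 71.7% of all genes. The call of Sesn2 depended on control culture 3, without which the adjusted p was 0.0240 (limma), and on scaling, since quantile normalization gave 0.28 (adjusted p = 0.0157, limma).

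The levels of the 8 genes put the groups in different orders. On reads scaled over all 15 libraries, Trib3, Chac1, Sesn2 and Eif4ebp1 stood in the order DON, no Gln, control cells and then the tumors, and Nupr1 stood in the order DON, no Gln, tumors and then control cells. For Cebpb and Cebpg the cells without Gln were highest and the DON cells followed. For Ddit4 the control cells were highest and the cells without Gln lowest. Within each gene the neighbouring culture groups did not overlap, and for 7 genes the vehicle and DRP-104 tumors did.
Per kilobase of the gene length in the tumor FPKM table, Eif4ebp1 had the highest level of the 8 in control cells (3872 ± 491 scaled reads per kilobase, SD, n = 3), followed by Ddit4 (2739 ± 242), and Sesn2 the lowest (206 ± 17.4). Trib3 went from the fifth level in control cells (452 ± 57.4) to the second after DON (5840 ± 212). Ddit4 went from the second to the lowest of the 8 without Gln (347 ± 36.4). In vehicle tumors Ddit4 had the highest level (2258 ± 288), overlapping Eif4ebp1 (1673 ± 329).

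In tumors the question was whether DRP-104 moved these genes in the animal. With limma 0 of 15454 genes were called (0%), 775 genes or 5.01% had an unadjusted p under 0.05, edgeR called 0 genes and DESeq2 70, none of them among the 8. Trib3 had 446, 338 and 155 normalized counts in DRP-104 tumors and 256, 196 and 215 in vehicle tumors. The highest and the lowest of the 6 values were both DRP-104 tumors, and the log2 fold change of 0.37 had a 95% interval of -0.49 to 1.24 (adjusted p = 0.931, limma). Without DRP-104 tumor 3 it was 0.81, and under that choice it was not called either. Chac1 had 137, 115 and 52.0 against 120.7, 65.9 and 142, a log2 fold change of -0.15 (-1.20 to 0.91), which changed sign to 0.27 without DRP-104 tumor 3 and to 0.07 without vehicle tumor 3. Nupr1 had 2253, 1873 and 1574 against 1460, 1513 and 1741, and its log2 fold change was 0.26 (-0.12 to 0.65).
Neither C/EBP gene was called. Cebpb had 1145, 1307 and 1278 in DRP-104 tumors against 1316, 1315 and 1157, a log2 fold change of -0.02 (-0.34 to 0.29) whose sign depended on which tumor was left out. Cebpg had 1417, 1585 and 1463 against 1371, 902 and 1247, and was the 1 gene of the 8 whose groups did not overlap, as was the case in the higher direction for 4.83% of all genes. Its log2 fold change was 0.36 (-0.05 to 0.78, adjusted p = 0.916, limma).
On the mTORC1 arm, Sesn2 had 219, 265 and 174 normalized counts in DRP-104 tumors against 256, 223 and 291, a log2 fold change of -0.24 (-0.78 to 0.31). Eif4ebp1 had 1078, 1235 and 964 against 997, 1490 and 1376, with a log2 fold change of -0.22 (-0.66 to 0.21). Ddit4 had 1888, 2818 and 2194 against 2535, 3253 and 3165, with a log2 fold change of -0.39 (-0.81 to 0.04, adjusted p = 0.916, limma). The vehicle tumors were higher on average for these 3 genes, with overlap in each. The intervals leave room for rises of up to 1.24 on the log2 scale for Trib3 and of 0.29 for Cebpb, with 3 tumors a group. Their ends are no limits of detection, as the smallest adjusted p over all genes was 0.816 (limma).

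The tumor values stood beside differences in summed host cell markers. These sums were not tested, and 0 of 15454 genes were called in this comparison by limma. The 8 fibroblast markers summed to 74722, 105872 and 49903 scaled reads in vehicle tumors and to 41459, 28739 and 24193 in DRP-104 tumors, which did not overlap. The 5 endothelial markers did not overlap either, at 2918, 3059 and 2528 in vehicle tumors and 1973, 2396 and 1560 in DRP-104 tumors. Fewer cells of a type and less RNA per cell cannot be told apart in bulk RNA. By staining of tumor sections, the paper found no significant change with DRP-104 in the fibroblast subsets it counted. The 8 macrophage markers summed to between 11453 and 14877 in vehicle and between 7952 and 16513 in DRP-104 tumors, and the epithelial markers to between 153971 and 209733 and between 170836 and 228767. DRP-104 tumor 3, in which Trib3, Chac1, Nupr1, Sesn2 and Eif4ebp1 were each lowest of the DRP-104 tumors, had 1631 scaled reads of 6 T cell markers, where the other tumors had 46.3 to 103.03. Cebpb, Cebpg and Ddit4 were lowest in DRP-104 tumor 1, and the share of all genes lowest in tumor 3 was not counted. Tumor 3 also had the highest epithelial (228767), macrophage (16513) and neutrophil (747) sums of all tumors. Its fibroblast (24193) and endothelial (1560) sums were the lowest, so T cell markers were 1 of several that stood apart. Their part in the tumor values was not tested.
Control cells exceeded vehicle tumors 3.23-fold for Trib3 and 3.74-fold for Chac1 in reads scaled together. The ratio of vehicle tumors to control cells was 0.457 for Sesn2, 0.432 for Eif4ebp1, 0.824 for Ddit4, 0.901 for Cebpb, 0.996 for Cebpg and 1.26 for Nupr1. Cells and tumors came from tables normalized separately and no test was made between them.
The tumor FPKM table, whose columns could not be matched to the tumors above, gave the opposite sign for 6 of the 8 genes. Ddit4 had 236, 97.5 and 145 FPKM in DRP-104 tumors and 96.9, 66.4 and 119 in vehicle tumors there, a log2 fold change of 0.71. The others were Sesn2 (0.49), Cebpb (0.47), Chac1 (0.28), Eif4ebp1 (0.01) and Cebpg (-0.29). None of the 8 was called on FPKM either, so these tumor directions hold for 1 table each.

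The effect of each culture treatment was then subtracted from that of DRP-104 in tumors within 1 model, each against its own control. All 8 genes were called in both contrasts, where 33.1% of 15070 genes were called against DON (19.1% higher and 14% lower) and 36.7% of 14979 against the absence of Gln (18.6% higher and 18.1% lower). Of these, 7 had a lower effect in tumors than in cells and Ddit4 a higher one. The drugs, doses, durations and host cells differ between tumors and cultures along with the setting and cannot be told apart.
For Trib3 the DRP-104 effect minus the DON effect was -3.30 on the log2 scale (SE 0.397, adjusted p = 4.41e-05, limma). It was -2.69 for Chac1 (adjusted p = 0.000724, limma), -2.24 for Nupr1 (adjusted p = 2.71e-06, limma) and -1.65 for Sesn2 (adjusted p = 0.000162, limma). Eif4ebp1 had -1.41 (adjusted p = 0.000325, limma), Cebpb -0.67 (adjusted p = 0.00479, limma) and Cebpg -0.69 (adjusted p = 0.0258, limma). For Ddit4 the difference was positive, 1.63 (SE 0.266, adjusted p = 0.000466, limma). The call of Cebpg was lost on leaving out any 1 of vehicle tumors 1 and 3, DON cultures 1 and 2, and control cultures 1 and 2, with adjusted p-values of 0.0540 to 0.0703 (limma).
Against the absence of Gln the differences were -2.72 for Trib3, -1.76 for Nupr1, -1.50 for Sesn2, -1.29 for Cebpb, -1.16 for Cebpg and 2.59 for Ddit4, with adjusted p-values of 3.25e-06 to 0.00151 (limma). Those of Chac1, -1.32 (SE 0.475, adjusted p = 0.0433, limma), and Eif4ebp1, -0.69 (SE 0.217, adjusted p = 0.0244, limma), were less firm. Chac1 lost its call without DRP-104 tumor 3, without vehicle tumor 1 or 3 and without any 1 of the 6 cultures, with adjusted p-values of 0.0557 to 0.105 (limma), and Eif4ebp1 lost it without vehicle tumor 2 or 3, Gln-free culture 1 or 3, or control culture 3, with adjusted p-values of 0.0526 to 0.0598 (limma).

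**Figure D4:**
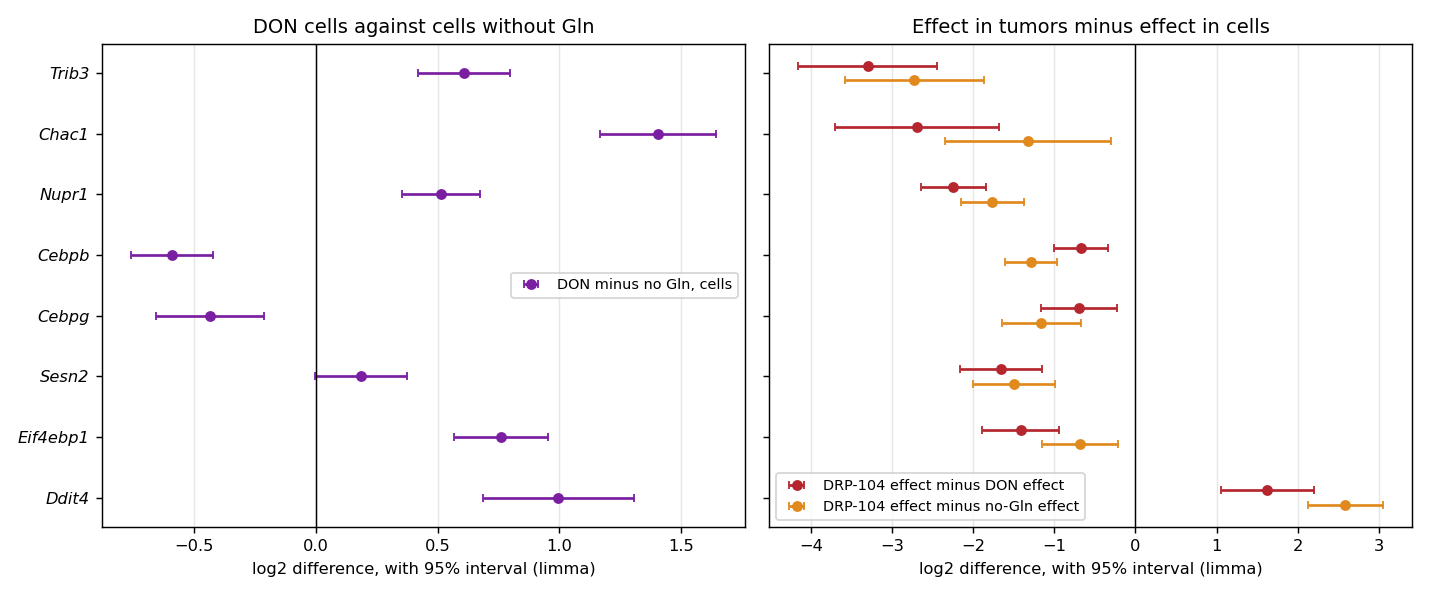
Left, log2 difference between DON cells and cells without Gln; right, the log2 effect of DRP-104 in tumors minus that of DON or of the absence of Gln in cells, with 95% intervals from limma. Chac1 has the largest difference on the left, 1.40, and on the right 7 genes lie below 0 and Ddit4 lies above.

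Genes around the 8 in the same pathways were counted from lists chosen by function, with earlier results of these data known. The counts are therefore a description and no independent support. They are to be read beside the 33.3% of all genes called higher and 34.7% lower after DON, and 34.5% higher and 34.9% lower without Gln. Among 7 ATF and CHOP factors, a list that also held the transcription factor gene Xbp1, 6 rose after DON and 7 rose without Gln, and 0 fell. The 1 not called after DON was Xbp1 (log2 fold change 0.07, adjusted p = 0.519, limma). Ddit3, which encodes CHOP, had the largest rise of the 7, 4.64 on the log2 scale after DON (adjusted p = 1.96e-12, limma) and 4.48 without Gln (adjusted p = 7.42e-12, limma). Of 23 other ATF4 target genes tested, 22 rose after DON and 0 fell, with a median log2 fold change of 1.24. Without Gln 18 rose and 2 fell, with a median of 0.68. Cth, which makes cysteine from cystathionine, had the largest rise in both (3.05 and 1.63 on the log2 scale), while Phgdh, the first enzyme of serine synthesis, rose by 0.57 after DON and fell by 0.25 without Gln.
Of 13 kinases and factors that control eIF2, 4 were higher and 4 lower after DON, close to the shares of all genes, and 6 were higher and 3 lower without Gln. Their median log2 fold changes were 0.03 and 0.05. Ppp1r15a, which encodes the phosphatase subunit GADD34 that reverses eIF2 phosphorylation, rose by 3.48 and 3.77 on the log2 scale. Eif2ak4, which encodes GCN2 itself, had the largest fall after DON, a log2 fold change of -1.51, and Eif2b5, an eIF2B subunit, the largest without Gln, one of -1.19.

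The paralogs of the 8 genes mostly fell. Of 10 tested after DON, 7 fell and 1 rose, and of 9 tested without Gln, 6 fell and 1 rose. The 1 that rose was Cebpd, by 1.60 and 1.86 on the log2 scale. Beside the rise of Sesn2, Sesn1 had log2 fold changes of -1.04 after DON and -1.37 without Gln, and Sesn3 of -1.27 and -0.48. Beside the rise of Trib3, Trib2 had -2.02 and -2.99, and Trib1 had -1.40 after DON and -0.14 without Gln, the latter not called (adjusted p = 0.215, limma). Cebpa likewise had -1.58 after DON and -0.14 without Gln, the latter not called (adjusted p = 0.233, limma). Ddit4l, the paralog of Ddit4, fell with it, with log2 fold changes of -3.70 (adjusted p = 2.47e-05, limma) and -3.29 (adjusted p = 0.000177, limma), at low counts of 24 to 89 reads in controls, 2 to 4 after DON and 2 to 8 without Gln. Sesn1, Sesn3, Trib1, Trib2 and Cebpa were named after their values were seen, and the other folds given here passed the test.
Around Chac1, 7 of 8 genes of glutathione supply and breakdown fell after DON and 4 of 8 without Gln. Gsr, glutathione reductase, had the largest fall in both, with log2 fold changes of -1.40 and -1.49. Slc7a11, the cystine carrier, was the 1 gene of the list that rose after DON, by 0.68 (adjusted p = 0.000381, limma), and it had 0.31 without Gln (adjusted p = 0.0699, limma).
Around Sesn2 and Ddit4, 10 of 22 genes of the mTORC1 core and amino acid sensing rose and 3 fell after DON, and 8 rose and 5 fell without Gln, with median log2 fold changes of 0.09 and 0.0070. The share that rose without Gln was near that of all genes. Rragd, a Rag GTPase that brings mTORC1 to the lysosome, had the largest rise, of 3.11 and 1.55 on the log2 scale. Depdc5, a subunit of GATOR1, had the largest fall, with log2 fold changes of -0.82 and -1.17. Around Eif4ebp1, 2 of 9 genes of eIF4E and cap binding rose and 4 fell after DON, and 3 rose and 3 fell without Gln, the latter again near the shares of all genes, with Eif4a2, an RNA helicase of translation initiation, rising most, by 0.87 and 1.73. The largest falls there were those of Eif4e3 after DON (-0.87) and of Eif4b without Gln (-0.85). None of the genes of these lists was called in tumors by limma, where 0 of 15454 genes were called.

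**Figure D5:**
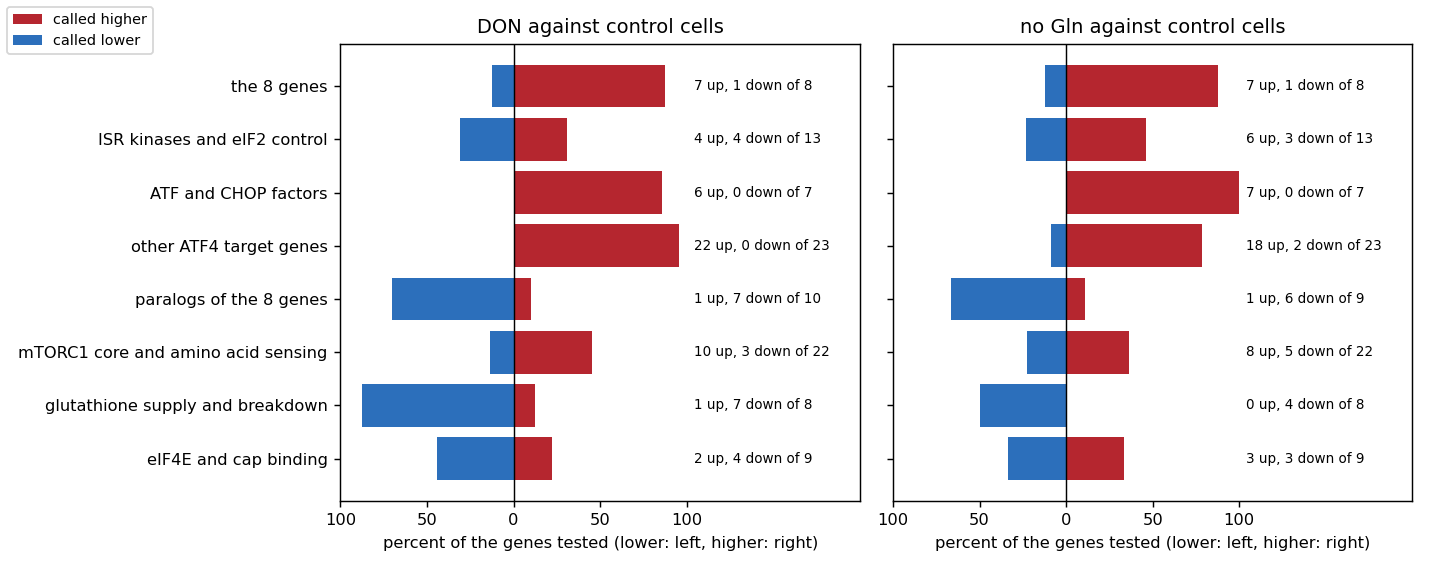
Percent of the tested genes of each list that were called higher (right, red) or lower (left, blue) after DON and without Gln, with the counts beside each bar. ATF and CHOP factors, a list that includes Xbp1, and other ATF4 targets lie almost wholly on the right. The 8 genes do so too with the exception of Ddit4, and paralogs and glutathione genes lie mostly on the left.

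Within the 8 genes, likeness was measured as the root mean square difference of log2 profiles over the 9 cultures, each set to the mean of the controls. Sesn2 and Cebpg were most alike (0.315), then Cebpb and Cebpg (0.337), and Trib3 and Ddit4 least (4.81). Neighbours outside the 8 were sought among 10431 genes with a mean of at least 100, a number that includes the 8. The nearest to Trib3 were 2410006H16Rik (0.176) and Atf3 (0.290). The nearest to Chac1 were Mthfd2 (0.166), a mitochondrial folate enzyme and one of the other ATF4 targets, and Cfap157 (0.190). Mthfd2 rose by 2.67 on the log2 scale after DON and by 1.32 without Gln, close to the 2.54 and 1.17 of Chac1. Nupr1 was nearest to 1110038B12Rik (0.121) and Gfra1 (0.207).
Cebpb was nearest to Slc35b1 (0.0896) and Tfap2a (0.0907), and Cebpg to Smim10l1 (0.0597) and Sos2 (0.0780). Sesn2 was nearest to Scnm1 (0.0516) and Slc7a1 (0.0709), a carrier of cationic amino acids, and Eif4ebp1 to Rhoc (0.0381) and Tmem199 (0.0741). Ddit4 had as its nearest Scd2 (0.118), a fatty acid desaturase, and Clu (0.129), which encodes clusterin. Scd2 had log2 fold changes of -2.07 after DON and -3.01 without Gln, beside -2.01 and -2.97 for Ddit4. None of these neighbours was called in tumors by limma, where 0 of 15454 genes were called.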

How the data were processed

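RNA of 15 samples was extracted by the authors with TRIzol and a PureLink kit, and Novogene made the libraries, aligned reads with HISAT2 and ran DESeq2. The submitters' processing notes also name CASAVA, STAR 2.5 and GRCm39 without a role, while gene coordinates in the deposited FPKM table match GRCm38 (93.63% of 34457 genes start within 1000 bases of the GENCODE M21 start). The counting tool is not given in the sources used here.

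Each of the 3 deposited tables of normalized counts (a signal that is never negative) holds counts that the authors divided by a size factor per library, estimated within that table. The FPKM table deposited for tumors is normalized by the authors for length and library size. Its columns did not match the tumors of the counts (highest correlation of deviations 0.369). Control columns of the culture tables carry the string of the vehicle tumors' titles. They were taken as the control cultures because they are the comparator in the culture tables, and both tables held the same recovered reads for all 55291 genes. A further tumor table and other FPKM tables were not used here. Whole reads were recovered by dividing by the worth of 1 read (tolerance 0.0051, at least 99.9584% of values whole). Among genes of 1 to 20 reads, 69.6% to 72.71% of counts were even in culture libraries and 41.9% to 46.55% in tumor libraries. Reads without molecular identifiers are not independent molecules.

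Values were tested with limma 3.58.1 (R 4.3.3, lmFit and trended eBayes) on log2(value + 1), for genes with a mean of at least 10 over the libraries of the fit, with Benjamini-Hochberg adjustment. Fold changes on this scale understate those of low genes. DON and Gln-free cells were compared over 9 culture libraries scaled together, and tumor and culture effects by an interaction contrast. Alternatives were edgeR 4.0.16 and DESeq2 1.42.0 on recovered reads, no filter or a mean of at least 50, pseudocounts of 0.5 and 5, quantile normalization, an adjusted p under 0.01, all 9 cultures in 1 fit, FPKM (mean of at least 0.5), a replicate block and leaving out each library. The fits were tested on simulated data. The 8 genes, the lists and the motifs were chosen with earlier results of these data known. Genes named beside the 8 are the largest rise and fall per list in each culture comparison and the 2 nearest profiles per gene. Outside this rule, Sesn1, Sesn3, Trib1, Trib2 and Cebpa were named after their values were seen. Python 3.11 with numpy 2.4.6, pandas 2.3.3 and matplotlib 3.10.9 was used.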

Additional observations from a re-analysis of the deposited data

Results flagged for a closer look

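All 8 genes differed between the effect of DRP-104 in tumors and that of DON in cells by a test of the difference itself (limma, interaction contrast). The log2 effect in tumors minus that in cells was -3.30 for Trib3, -2.69 for Chac1, -2.24 for Nupr1, -1.65 for Sesn2, -1.41 for Eif4ebp1, -0.69 for Cebpg, -0.67 for Cebpb and 1.63 for Ddit4. The share of all genes called in this contrast was 33.1%. The call of Cebpg was lost in 6 of 12 fits that left out 1 library (adjusted p = 0.0540 to 0.0703, limma) and under the replicate block (adjusted p = 0.0610, limma).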

How the results depend on the processing

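After DON and without Gln, each of the 128 values of the 8 genes under the alternatives kept its direction and its call, with highest adjusted p-values of 0.000483 and 0.00705 (limma), both on leaving out 1 library. Between DON and Gln-free cells 142 of 144 did, the others being Sesn2 as given above. In tumors none of 128 values was called, with a lowest adjusted p of 0.629, and 12 changed sign. These were 6 genes on FPKM (Chac1 0.28, Sesn2 0.49, Ddit4 0.71, Cebpb 0.47, Cebpg -0.29, Eif4ebp1 0.013), Cebpb under quantile normalization (0.0033), Cebpb without DRP-104 tumor 1 (0.037), vehicle tumor 1 (0.0096) or vehicle tumor 2 (0.0091), and Chac1 without DRP-104 tumor 3 (0.27) or vehicle tumor 3 (0.07). Over the tumors left out in turn, Cebpb ran from -0.083 to 0.037 and Chac1 from -0.48 to 0.27. The cause was not tested. DESeq2 called 70 genes in tumors. An adjusted p under 0.01 left 3007 genes in the contrast of DRP-104 with DON and 3429 in that with Gln-free cells, as a stricter threshold must, and there Cebpg in the first and Chac1 and Eif4ebp1 in the second lost their calls. In the second, Chac1 also lost it with no filter (adjusted p = 0.0678, limma) and under quantile normalization (adjusted p = 0.151, limma). Quantile normalization moved the median log2 difference over all genes in that contrast from -0.017 to -0.063.

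Replicate numbers did not mark shared samples: correlations of deviations between same-numbered samples lay between -0.365 and 0.0715. With the replicate block 9216 genes were called after DON, 9056 without Gln, 0 in tumors, 8456 between the culture treatments, and 4075 and 4509 in the contrasts of tumors with cells. Cebpg in the first of these (adjusted p = 0.0610, limma) and Chac1 in the second (adjusted p = 0.0855, limma) were not called under the block, and it changed no other call of the 8 genes. With 3 samples a group, effects in tumors inside the printed intervals could not be resolved, and depth was lower there than in cultures.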
